A study of Mus musculus with 2 samples.

Results

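The arterial-like endothelial cells of injured mouse gastrocnemius muscle made up 516 of the 13432 cells deposited for the series, 258 in the WT library and 258 in the KO library. The members were chosen by their own transcripts, that is, selected on which of the genes below had a UMI in the cell. A cell counted as endothelial when it held a UMI (1 captured and tagged RNA molecule) of both Cdh5 and Pecam1, which encode the adhesion proteins VE-cadherin and PECAM1, no UMI of the leukocyte gene Ptprc or of the fibro-adipogenic progenitor (FAP) gene Pdgfra, at most 1 of 4 pericyte genes (Kcnj8, Abcc9, Notch3, Higd1b) and at most 1 of 3 lymphatic genes (Prox1, Mmrn1, Ccl21a). Of the 2531 cells that passed, those with a UMI of at least 2 of the 4 arterial genes Gja5, Sema3g, Dll4 and Hey1 and of at most 1 of the 4 venous genes Ackr1, Selp, Sele and Lrg1 were taken as arterial-like. The 1973 cells with at most 1 gene of each of these sets served as the comparison and are called the remaining endothelial cells. The venous-like rule left 40 cells, too few for a gene-by-gene account.

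The series compared male WT and Gsdme global KO mice. The methods list purchased WT C57BL/6J mice and also crosses of heterozygotes that gave WT and KO littermates. They do not state the background of the KO mice or which WT mice were sequenced. The gastrocnemius of each mouse had been injected with cardiotoxin (CTX), a snake venom toxin that destroys muscle fibers, and the muscle was taken 14 days later, so both groups were injured and neither library is from resting muscle. The methods give 5 mice per genotype and do not say how they entered the libraries. Injured muscle tissue was dissociated, and the methods do not say whether these cells were sorted. From them 1 library per genotype was made with a 10x Genomics kit that reads the 5′ end of transcripts. With 1 library per genotype there is no replicate check of any KO to WT difference, no p-value is given, and the 95% intervals printed here cover counting error only. The 2 libraries shared 4 cell barcodes, 0 of them among the arterial-like cells. The arterial-like cells held 2215087 UMIs in WT and 2215357 in KO, with medians of 6809 and 6740.5 UMIs per cell, against 3750 and 3406 in the remaining endothelial cells. Gsdme, the targeted gene, did not check the labels: all cells together held 225 UMIs in WT and 237 in KO (5.03 and 4.65 CPM, the count of a gene scaled to a fixed total of UMIs; log2 ratio −0.11, interval −0.38 to 0.16), and the arterial-like cells held 2 and 5. The deleted exon is not given in the sources used here and the kit counts 5′ ends, so transcripts of a disrupted gene could still be counted. WT and KO below therefore name the libraries that carry those labels.

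Arterial endothelial cells line the vessels that carry blood towards the capillaries. Their identity is set and kept by Notch signalling, in which the ligands Dll4 and Jag1 on one cell activate receptors such as Notch1 and Notch4 on its neighbour and switch on targets of the Hey and Hes families, together with SoxF transcription factors (Sox17, Sox7, Sox18) and genes that respond to blood flow (Klf2, Klf4). Gap junctions built from Gja5 and Gja4 couple these cells along the vessel and to smooth muscle, and the cells lay down elastic fiber components such as fibulin-5. In skeletal muscle most endothelial cells are capillary, with genes for water and fatty acid transport, and the passage from artery to capillary is gradual.

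Each of the 4 genes of the rule was seen in only some of the arterial-like cells. Dll4, the Notch ligand, was found in 244 WT and 231 KO cells, Hey1, a transcriptional repressor downstream of Notch, in 185 and 198, and Sema3g, a secreted guidance protein, in 160 and 142. Gja5, a gap junction protein, was found in 52 and 43 cells. The most frequent combination was Dll4 with Hey1 alone, carried by 89 WT cells (34.5%) and 104 KO cells (40.3%). All 4 genes were present in 27 and 17 cells, 3 of 4 in 71 and 64, and exactly 2 of 4 in 160 and 177. Membership often rested on few molecules: the median cell held 5 UMIs of the 4 genes together in each library, and in 36 WT and 47 KO cells every detected gene of the rule stood at 1 UMI. Just outside the threshold, 539 WT and 510 KO endothelial cells held 1 of the 4 genes. Depth moved with membership, from medians of 2910 and 2521 UMIs in cells with none of the 4 genes to 4702 and 4619.5 with 1, 5794.5 and 5973 with 2, 9259 and 7467 with 3, and 9993 and 5547 with all 4, so that the KO cells with 4 genes were shallower than those with 2 or 3. The levels below are given in CPM, and shares of cells also after thinning every cell to 1000 UMIs, for which shallower cells were left out (257 and 258 arterial-like cells and 920 and 882 remaining cells were kept).

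For the genes of the rule and for Gja4, the stretch before the transcription start is shown where the RefSeq promoter table for GRCm38.p6 held one, as the reference sequence beside which the expression of these cells can be read. Gja5 lies on chromosome 3 at 96904693-97077416, Sema3g on chromosome 14 at 31217860-31230352, Dll4 on chromosome 2 at 119325784-119335962 and Gja4 on chromosome 4 at 127311421-127314039 (GENCODE annotation, all but Gja4 on the + strand), and each printed window is the 250 bases before the RefSeq start. Hey1 (chromosome 3, 8663359-8667256) and Sox17 (chromosome 1, 4490931-4497354) had no entry. Capitals mark the GC box GGGCGG, the CCAAT box and the TATA-like TATAA, each searched on both strands, so that a capital run can be the reverse complement. The windows are Dll4 at chr2:119325534-119325783 (+), Sema3g at chr14:31217623-31217872 (+), Gja5 at chr3:97032152-97032401 (+) and Gja4 at chr4:127314040-127314289 (−), printed 5′ to 3′ on the strand of the gene.
Dll4: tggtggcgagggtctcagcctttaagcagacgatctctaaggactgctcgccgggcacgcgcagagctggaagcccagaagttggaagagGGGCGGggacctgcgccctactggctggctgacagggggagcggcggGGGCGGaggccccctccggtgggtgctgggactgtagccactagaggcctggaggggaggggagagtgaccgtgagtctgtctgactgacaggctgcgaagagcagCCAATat
Sema3g: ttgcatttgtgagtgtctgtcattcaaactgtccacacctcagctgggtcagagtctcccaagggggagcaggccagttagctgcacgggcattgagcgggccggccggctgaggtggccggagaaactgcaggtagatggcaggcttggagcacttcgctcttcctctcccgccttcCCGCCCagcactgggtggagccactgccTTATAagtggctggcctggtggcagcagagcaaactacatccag
Gja5: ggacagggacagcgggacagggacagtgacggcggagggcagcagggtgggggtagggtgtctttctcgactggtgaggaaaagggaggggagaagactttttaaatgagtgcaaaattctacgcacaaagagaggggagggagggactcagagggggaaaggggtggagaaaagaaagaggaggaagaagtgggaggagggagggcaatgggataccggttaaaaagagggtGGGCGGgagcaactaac
Gja4: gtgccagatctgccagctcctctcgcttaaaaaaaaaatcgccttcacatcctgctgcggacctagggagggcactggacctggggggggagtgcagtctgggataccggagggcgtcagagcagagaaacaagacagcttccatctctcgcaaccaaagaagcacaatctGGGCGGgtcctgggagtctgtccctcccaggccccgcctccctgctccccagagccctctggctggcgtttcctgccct
The Gja5 window lies inside the GENCODE gene, whose first start is farther upstream. GGGCGG occurred 2 times before Dll4 and 1 time before each of the others, against 32.74% of the 32851 promoter windows in the table that hold it. CCAAT was found before Dll4 alone (33.85% of all windows) and TATAA before Sema3g alone (22.78%). The core TGGGAA, read by RBPJ, the DNA-binding partner of Notch, was in none of the 4 windows and in 21.59% of all. These are matches of letters in a short window. GC content was 65.6% before Dll4, 60.4% before Sema3g, 56.4% before Gja5 and 61.2% before Gja4, against a median of 52.4% over all windows.

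The genes outside the rule were set against the remaining endothelium. A total of 7672 genes outside the rule reached 50 UMIs in the arterial-like cells of both libraries together. Among them 47 (0.613%) were at least 2-fold higher than in the remaining endothelial cells in both libraries and 17 (0.222%) at least 2-fold lower. Genes entered through their UMIs in the arterial-like cells alone, which favors genes that are high there, so the 47 and the 17 are not to be weighed against each other. The rule selects on expression, and these values are a description with no test. Of the further arterial genes in a list from general knowledge (28 genes, 25 with enough UMIs), 8 were among those 47, with a median log2 ratio of 0.82 in WT and 0.48 in KO. Of the capillary list 0 of 20 and of the venous list 0 of 13 were.

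**Figure D1:**
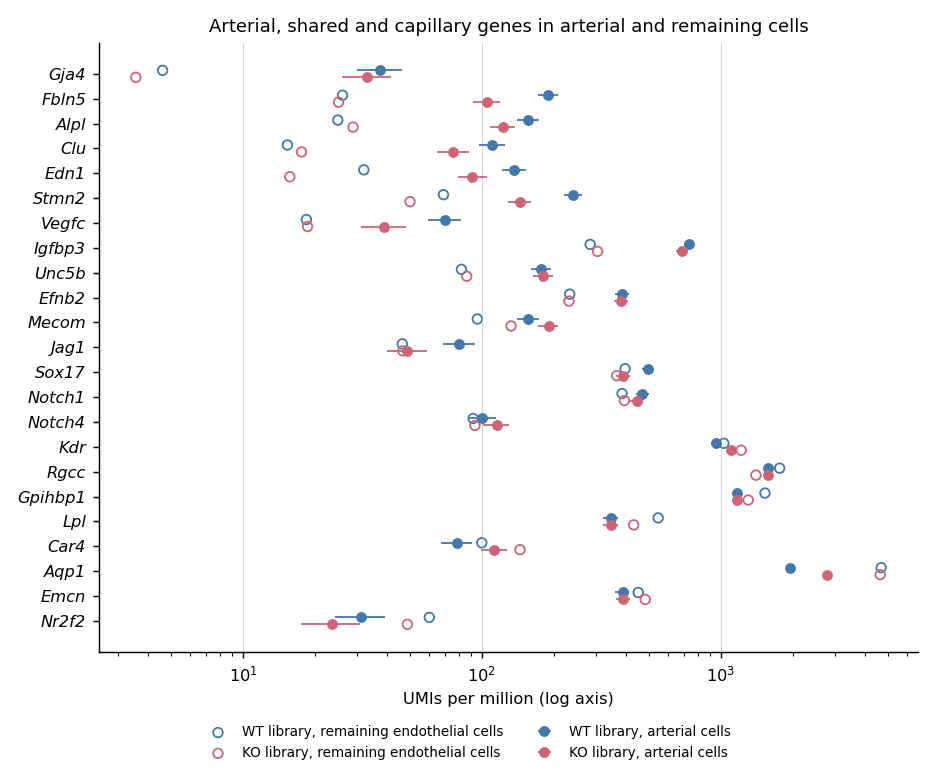
Level of 23 genes in arterial-like cells (filled points, with 95% Poisson intervals of the summed UMIs) and in the remaining endothelial cells (open points), WT and KO, in CPM on a log axis. Gja4, Fbln5, Alpl and Clu lie several-fold above the remaining cells in both libraries, whereas Rgcc, Gpihbp1 and Kdr lie close to them.

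Among the gap junction genes, Gja4, the partner of Gja5 in arterial endothelium, stood at 37.5 CPM in WT and 33.0 in KO against 4.60 and 3.56 in the remaining cells, a log2 ratio of 3.03 (2.36 to 3.75) and 3.21 (2.44 to 4.07). It was seen in 18.6% and 16.3% of arterial-like cells and in 1.88% and 1.45% of the remaining ones, and after thinning in 5.84% and 5.04% against 0.544% and 0.680%. In FAP-gated cells, which should lack it and had median depths of 7959 and 8562 UMIs, 0.311% and 0.404% of cells held a UMI, so the level in the arterial-like cells stood above that background. Gja1, a gap junction gene of many cell types, hardly differed between arterial-like and remaining cells, at 449 and 603 CPM against 421 and 560.

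The Notch pathway was mixed, also among genes of the same role. Of the ligands besides Dll4, Jag1 was at 80.4 CPM in WT arterial-like cells against 46.4 in the remaining cells, and at 48.8 against 46.6 in KO, so its excess was seen in 1 library only. Dll1, another ligand, was lower in arterial-like cells, at 70.0 and 58.7 CPM against 114 and 83.0. The receptors lay modestly above the remaining endothelium, Notch1 at 469 and 444 CPM against 386 and 395, and Notch4 at 100.2 and 115 against 91.8 and 93.5. Efnb2, the arterial ligand of the venous receptor Ephb4 and a Notch target, was at 385 and 382 CPM against 233 and 231, a log2 ratio of 0.72 in each library. Nrarp, a feedback inhibitor that Notch induces, was modestly higher, at 224 and 171 CPM against 167 and 139. Hes1, a target that many pathways share, was below the remaining cells in WT (290 against 382 CPM) and slightly above them in KO (435 against 399). Hey2 and Heyl, the other Hey family genes, gave 0 and 3 UMIs and 9 and 17 UMIs in all arterial-like cells, too few to place.

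The transcription factors were less specific than the rule genes. Sox17, named among the markers of this cell type but left out of the rule, stood at 496 and 389 CPM against 398 and 367, a log2 ratio of 0.32 (0.21 to 0.43) in WT and 0.08 (−0.04 to 0.20) in KO. It was found in 79.5% and 78.3% of arterial-like cells and in 56.5% and 56.0% of the remaining ones, but after thinning in 36.6% and 30.2% against 26.5% and 28.1%, where thinning lowers every share. At equal depth the shares thus still stood apart in WT and lay close in KO. FAPs showed Sox17 in 1.32% and 0.808% of cells. Mecom, a transcription factor of arterial and blood stem cells, was at 156 and 190 CPM against 95.6 and 132. The flow-responsive Klf2 and Klf4 were abundant in both populations, Klf2 at 2408 and 2480 CPM against 2039 and 2148.

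Secreted and surface proteins were among the clearer differences. Alpl, tissue-nonspecific alkaline phosphatase, was at 156 and 122 CPM against 24.9 and 28.9, and was detected after thinning in 16.7% and 15.9% of arterial-like cells, 2.72% and 4.42% of the remaining ones. Immune-gated cells showed Alpl in 0.236% and 0.0909% without thinning. Edn1, the vasoconstrictor endothelin-1, stood at 137 and 91.2 CPM against 32.0 and 15.7. Unc5b, a netrin receptor of arterial and sprouting endothelium, was at 177 and 181 CPM against 82.0 and 86.4, and Vegfc, a growth factor that acts mainly on lymphatic vessels, at 70.0 and 38.8 against 18.4 and 18.6. Igfbp3, which binds insulin-like growth factors, was the most abundant of the group, at 734 and 686 CPM against 284 and 305. Stmn2, a microtubule regulator, was at 241 and 144 CPM against 69.0 and 49.97. Bmx, a tyrosine kinase known from arterial endothelium, was rare but nearly restricted to these cells, with 19 and 11 UMIs in 12 and 7 cells against levels of 0 and 0.627 CPM in the remaining endothelium.

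Of the wall matrix list, 2 of 21 scored genes were above 2-fold in both libraries. Fbln5, which helps assemble elastic fibers, was at 189 and 105 CPM against 26.1 and 25.1, and Clu, the secreted chaperone clusterin, at 111 and 75.8 against 15.3 and 17.6. Fbln5 is also a gene of FAPs, with a UMI in 69.05% and 71.55% of FAP-gated cells. The FAP marker genes as a list were lower in arterial-like than in remaining cells. The part of FAP RNA in the Fbln5 level was not tested. Eln, elastin itself, did not separate the populations, at 80.4 and 67.3 CPM against 56.0 and 82.2. The 15 genes highest over the remaining cells by their less extreme library were Gja4, Tmem178, Slc45a4, Cytl1, Clu, Syt15, Edn1, Alpl, Fbln5, Gkn3, Acta2, Tesc, Rbp7, S1pr3 and Apol9a. Several of them came from few cells. Cytl1 was in 4 WT and 5 KO cells and Gkn3 in 12 and 7, while Acta2, the smooth muscle actin, had 62.3% and 65.5% of its UMIs in the 5 cells with most of it.

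Smooth muscle RNA therefore stood beside these levels. The summed smooth muscle list was 755 CPM in WT and 419 in KO arterial-like cells, against 233 and 264 in the remaining cells, and 13 and 14 arterial-like cells held at least 10 UMIs of Acta2, Myh11 and Tagln together. Without those cells the Acta2 log2 ratio over the remaining endothelium was −0.17 in WT and −2.27 in KO. Acta2 was among the genes that chose the cells left out, so its fall was set in advance. The remaining cells were not filtered in this way, so these ratios set a filtered group against an unfiltered one. Tesc stood under the same setting at −0.08 in KO and S1pr3, a sphingosine phosphate receptor, at −0.15 in WT. The number of genes at least 2-fold higher in both libraries was 37 there, in place of 47. Of the 15 named genes these 3 turned their sign there, and the other 12 stayed above the remaining cells in both libraries.

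The 15 genes lowest against the remaining endothelium were mostly matrix genes of fibroblastic cells. They were Thbs4, Col1a1, Serpinf1, Fmo2, Col1a2, Dcn, Samd5, Prg4, Clec3b, Medag, Abi3bp, Sned1, Cxcl9, Mbp and Lum. Col1a1, a collagen I chain, was at 207 and 97.1 CPM against 963 and 303, and Dcn, the proteoglycan decorin, at 201 and 127 against 739 and 337. The summed FAP list was 1448 CPM in WT and 830 in KO against 3900 and 2124, with Pdgfra at 0 by the gate. Cxcl9, an interferon-induced chemokine, and Mbp, a myelin gene, were not of that kind. Cxcl9 was at 112 and 148 CPM against 288 and 314. Part of the arterial-like to remaining differences thus involved genes of other cells, whose part in them was not tested.

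The arterial-like cells were not free of capillary genes. Rgcc, a cell cycle regulator widely used as a capillary marker, was at 1572 and 1570 CPM against 1764 and 1403, and Gpihbp1, which holds lipoprotein lipase at the capillary wall, at 1170 and 1167 against 1531 and 1303. Kdr, the main VEGF receptor, was at 953 and 1101 CPM against 1030 and 1217. Aqp1, the water channel, was the clearest difference, at 1951 and 2785 CPM against 4695 and 4651. The venous transcription factor gene Nr2f2 was lower, at 31.2 and 23.5 CPM against 60.2 and 48.7, while Vwf, von Willebrand factor of larger vessels, was higher, at 94.8 and 96.6 against 65.7 and 66.3. The label therefore held for the arterial markers in part, and a rule of 2 of 4 genes took in cells with a capillary profile as well.

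**Figure D2:**
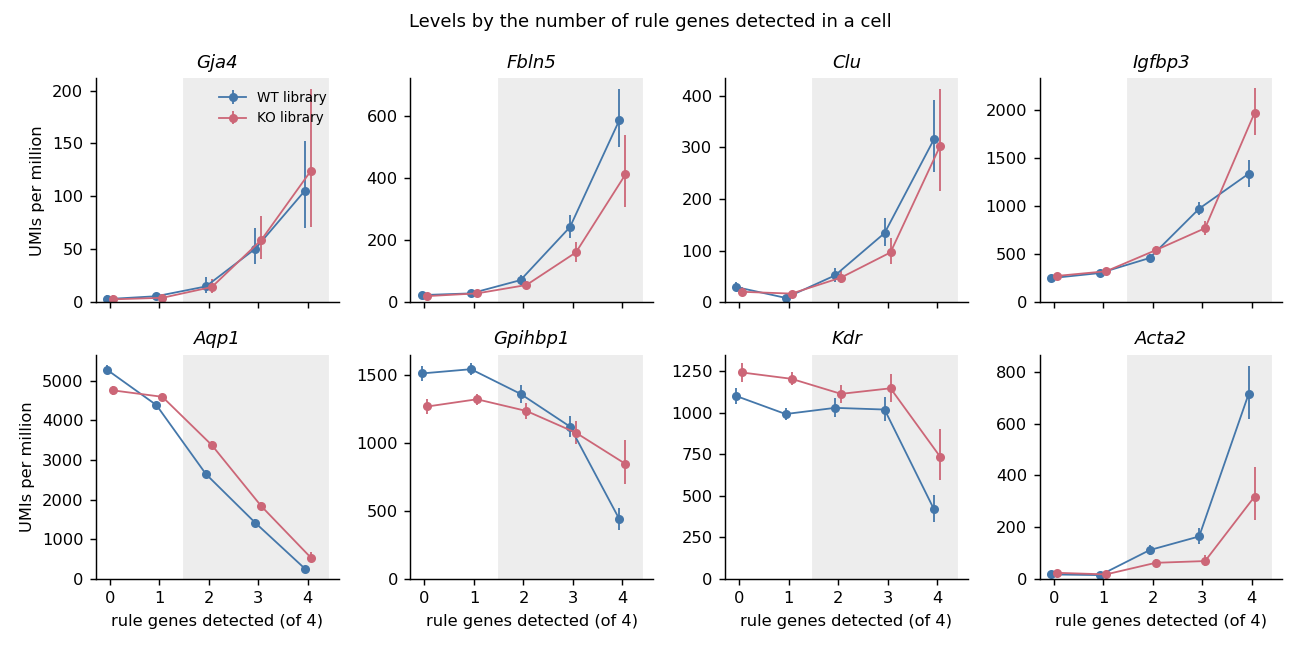
CPM of 8 genes in endothelial cells with 0 to 4 of the rule genes Gja5, Sema3g, Dll4 and Hey1 detected, in WT and KO, on linear axes from 0, with the arterial-like range of 2 to 4 shaded. Gja4, Fbln5, Igfbp3 and the smooth muscle gene Acta2 climb from 1 gene to 4, Aqp1 goes down, and Gpihbp1 and Kdr are lower mainly at 4.

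Within the arterial-like cells the profile moved with the number of rule genes. Gja4 stood at 14.8 CPM in WT cells with 2 of the genes, 50.5 with 3 and 105 with 4, and at 14.3, 58.8 and 124 in KO, against 5.5 and 4.0 in cells with 1 gene. Fbln5 went from 70.7 to 242 and 587 CPM in WT and from 55.0 to 160 and 411 in KO. Both arterial genes thus increased at every added gene in both libraries, as did Igfbp3, from 459 to 972 and 1336 CPM in WT and from 539 to 769 and 1969 in KO. Aqp1 went the other way, from 2646 to 1411 and 256 CPM in WT and from 3377 to 1833 and 535 in KO. Cells with 0 of the genes held 5284 and 4762 CPM of Aqp1. Gpihbp1 was at 1360, 1119 and 436 CPM in WT and at 1234, 1074 and 845 in KO, with its widest step at 4 genes in WT. The arterial marker Sox17 did not climb, at 487, 516 and 478 CPM in WT and 376, 428 and 349 in KO. Cells with 1 gene held 437 and 397.5 CPM of Sox17. The smooth muscle gene Acta2 climbed as well, from 111 to 164 and 715 CPM in WT and from 61.7 to 68.6 and 318 in KO. In Gja4, Fbln5, Igfbp3, Aqp1 and Gpihbp1, cells with 2 of 4 genes lay between the remaining endothelium and the cells with all 4. Cells with 2 of 4 genes were 62.0% and 68.6% of the arterial-like set.

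Detection of Gja5 split the set as well, for most further arterial genes in both libraries and for the capillary genes more fully in WT. The 52 WT and 43 KO cells with a Gja5 UMI had median depths of 8557 and 5268 UMIs, and the 206 and 215 cells without one 6405 and 7129. Gja5-detected cells were above the others in Fbln5 by a log2 ratio of 2.36 in WT and 2.42 in KO, in Clu by 2.23 and 2.999, in Alpl by 1.36 and 1.54 and in Edn1 by 2.02 and 1.85. They were below them in Aqp1, by log2 ratios of −2.73 and −1.73, and in Car4, a membrane carbonic anhydrase of capillaries, by −2.62 and −1.28. Of the 20 scored capillary genes, 20 were lower in the Gja5-detected cells in WT and 12 in KO. In KO, Cd36, a fatty acid transporter (log2 0.23 against −0.35 in WT), Aqp7 (0.30 against −1.26) and Timp4, a protease inhibitor (0.14 against −1.97), were among those not lower. Of 16 scored general endothelial genes, 14 were lower in the Gja5-detected cells in WT and 7 in KO, so the shift was not limited to capillary genes. The share over all genes was not counted for this split, and whether the lists differ was not tested. Of the 25 scored further arterial genes, 2 were lower in the Gja5-detected cells in each library. The arterial marker Sox17 was lower there too, by −0.44 in WT and −0.34 in KO, and Dll4 hardly differed (−0.005 and −0.16). Rbp7 differed between the libraries, at 0.11 in WT and 1.84 in KO. Smooth muscle genes were higher in the Gja5-detected cells as well, Acta2 by 2.675 and 1.72 and Myh11 by 2.92 and 1.49. Tagln was at 2.34 in WT and at 0.37 in KO, where its interval included 0. The FAP genes Col1a1 (1.06 and −0.84) and Dcn (1.035 and −0.77) were higher there in WT and lower in KO. The part of such RNA in this split was not tested.

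The first question between the genotypes was how many such cells each muscle yielded. Arterial-like cells were 19.97% of the gated endothelial cells in WT (258 of 1292, exact interval 17.82% to 22.25%) and 20.82% in KO (258 of 1239, 18.59% to 23.19%), a difference of 0.854 points (−2.28 to 3.998). Of all cells they were 4.06% and 3.645%, a difference of −0.415 points (−1.07 to 0.236). The gated endothelial cells as a whole were 20.33% and 17.5% of all cells, a difference of −2.83 points (−4.16 to −1.50). The arterial-like share of endothelium was thus within counting error of equal between the libraries, in dissociated tissue where recovery of a cell type also sets its share.

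The second question was how the transcripts of these cells differed. Among 7679 genes that reached 50 UMIs over both libraries, 92 (1.2%) were at least 2-fold higher in KO and 109 (1.42%) at least 2-fold lower, and the median log2 KO to WT ratio over all of them was 0.04. The lists below are set against those shares. They were drawn from general knowledge with earlier results of these data known, and their counts are descriptions.

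The further arterial list was lower in KO, with 19 of 25 scored genes below WT, 0 past 2-fold up, 2 past 2-fold down (Rbp7 and Tspan8, described below) and a median log2 ratio of −0.32, against −0.01 for the same genes in the remaining endothelial cells. Fbln5 stood at 189 CPM in WT and 105 in KO (log2 −0.85, −1.09 to −0.62), Stmn2 at 241 and 144 (−0.74, −0.95 to −0.54) and Vegfc at 70.0 and 38.8 (−0.85, −1.25 to −0.46). Ace, the angiotensin-converting enzyme, was at 103 and 62.3 CPM (−0.73, −1.05 to −0.42). In the remaining endothelium the log2 ratios were −0.06 for Fbln5 and 0.02 for Vegfc. The make-up of the set moved with this result, since fewer KO cells held 4 of the rule genes (17 against 27) and more held 2 (177 against 160). With cells of 2, 3 and 4 genes weighted alike in both libraries the list's median was −0.14, in Gja5-detected cells −0.10, in cells without Gja5 −0.22, and as a mean over cells in place of summed UMIs −0.08.

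Lists of other cell types differed beside these. In arterial-like cells 0 of 7 smooth muscle genes, 0 of 11 FAP genes and 0 of 11 muscle fiber genes had a higher ratio in KO, with medians of −0.81, −0.83 and −0.82, against 0.33, −0.32 and 1.31 in the remaining cells. Of the defining markers, Pdgfra and Ptprc were at 0 by the gate. The part of this RNA in the arterial-like values was not tested.

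**Figure D3:**
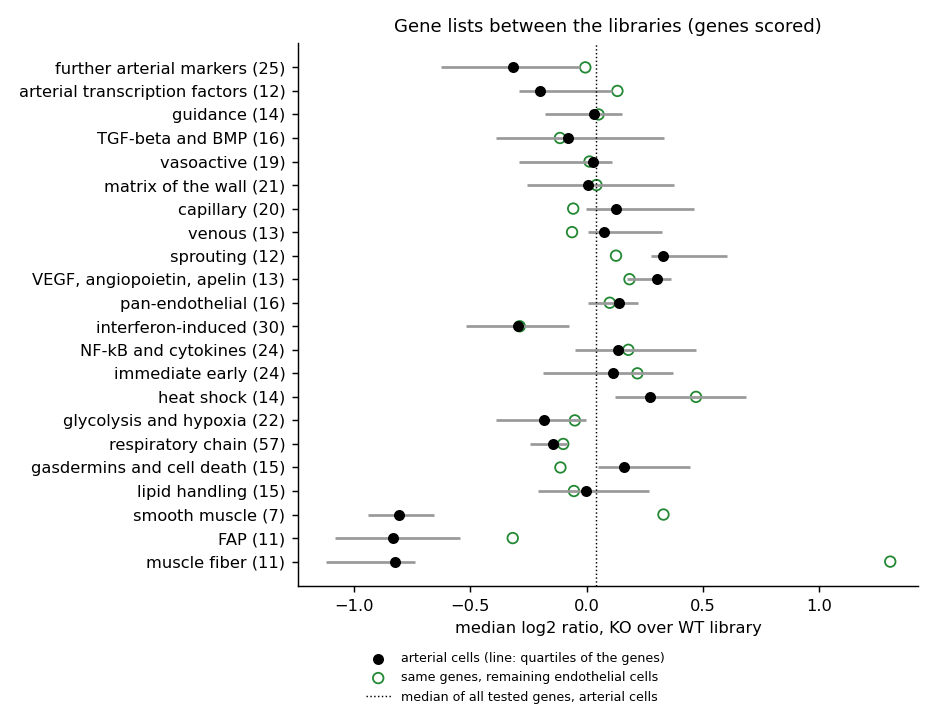
Median log2 KO to WT ratio of each gene list in arterial-like cells (black points, with a gray line between the quartiles of its genes) and of the same genes in the remaining endothelial cells (open green points), with the median of all tested genes dotted. The further arterial, oxidative phosphorylation and interferon lists lie below the dotted line in arterial-like cells, and the sprouting, VEGF and heat shock lists above it.

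Within the Notch pathway, the ligands were all at or below WT. Jag1 was at 80.4 CPM in WT and 48.8 in KO (log2 −0.72, −1.08 to −0.37) with a ratio of 0.01 in the remaining cells, Dll4 at 368 and 344 (−0.10, −0.25 to 0.04). The receptors were close to WT, Notch1 with a log2 ratio of −0.08 (−0.21 to 0.05) and Notch4 with 0.20 (−0.07 to 0.47). The targets went apart. Hes1 was higher in KO (290 to 435 CPM, log2 0.58, 0.44 to 0.73), Nrarp lower (224 to 171, −0.39, −0.59 to −0.19), Hey1 was at 200.4 and 213 CPM and Efnb2 at 385 and 382. Of the 4 scored ligands, 2 receptors and 5 targets, 0 passed 2-fold either way.

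Of the 12 scored transcription factors 4 had a higher ratio in KO, with a median of −0.20 against 0.13 in the remaining cells and 0 past 2-fold. Sox17 was at 496 CPM in WT and 389 in KO (log2 −0.35, −0.48 to −0.22), and Mecom at 156 and 190 (0.29, 0.08 to 0.50). The flow genes differed from each other. Klf4 was at 2490 and 1536 CPM (−0.70, −0.76 to −0.64), with −0.60 in the remaining endothelium, and Klf2 at 2408 and 2480 (0.04, −0.01 to 0.10). Klf4 was thus lower in KO endothelium at large.

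Genes that set vessel tone were mixed, with 10 of 19 higher in KO and 1 past 2-fold. That 1 was Adm, the vasodilator peptide adrenomedullin, at 159 CPM in WT and 70 in KO (log2 −1.18), with −1.10 in the remaining cells. Edn1 had a ratio of −0.58 (−0.85 to −0.32) and −1.03 in the remaining cells, and Nos3, endothelial nitric oxide synthase, −0.27 (−0.48 to −0.07). The wall matrix list gave 11 of 21 genes higher and 2 past 2-fold lower, Mfap5 and Loxl2, both genes of fibroblastic cells too, with a median of 0.01. The guidance list had a median of 0.03, and the TGF-beta and BMP list of −0.08, where Smad7 and Id1, which that pathway induces, were at −0.66 and −0.47 and at −0.89 and −0.71 in the remaining cells.

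Growth-related lists were on the higher side in KO by small amounts. Of 12 sprouting genes 11 had a higher ratio, with a median of 0.33 against 0.13 in the remaining cells, and of 13 VEGF and angiopoietin genes 11 did, with a median of 0.30 against 0.18. The lists share 4 genes. Apln, the peptide apelin made by sprouting tip cells, was at 51 CPM in WT and 87 in KO (log2 0.77). Adm, also counted as a sprouting gene, and the growth factor genes Vegfa (−0.93) and Vegfc were the members that were lower. In both lists 0 genes were past 2-fold higher.

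Interferon-response genes were lower in KO in arterial-like and remaining endothelium alike. Of 30 scored genes 25 were below WT and 4 were past 2-fold lower (Ifit1, Ifit3, Isg15 and Rsad2), with a median of −0.30 against −0.29 in the remaining cells. Isg15, a ubiquitin-like modifier induced by interferon, was at 1172 CPM in WT and 418 in KO (log2 −1.49), with −1.44 in the remaining cells. Inflammation genes were on the other side, with 17 of 24 higher in KO, a median of 0.13, 3 past 2-fold higher (Il6, Cxcl2 and Birc3) and 1 past 2-fold lower (Cebpb). Of 57 oxidative phosphorylation genes 3 had a higher ratio, with a median of −0.15 against −0.10 in the remaining cells and 1 past 2-fold, and of 22 glycolysis and hypoxia genes 6 did, with a median of −0.18 against −0.05. Of 15 cell death and gasdermin genes 13 had a higher ratio, with a median of 0.16 against −0.11 in the remaining cells. Heat shock genes had a median of 0.27 against 0.47 in the remaining cells, led by the chaperone gene Hsph1 at 1.20 and 1.30.

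**Figure D4:**
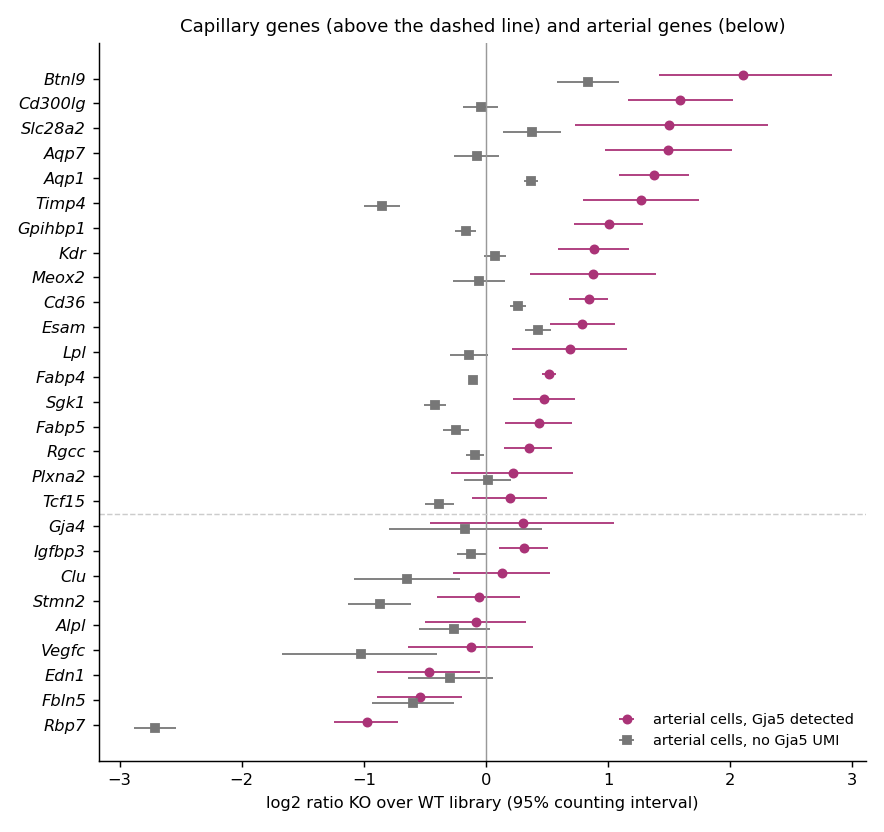
Log2 KO to WT ratio of 18 capillary genes (above the dashed line) and 9 arterial genes (below it) in arterial-like cells with a Gja5 UMI (circles, 52 WT and 43 KO cells) and without one (squares, 206 and 215 cells), with 95% binomial intervals. In Gja5-detected cells every capillary gene lies to the right of 0, and in the other cells they lie on both sides.

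The capillary genes were also compared between the genotypes by detection of Gja5. Over all arterial-like cells 12 of 20 were higher in KO and 1 past 2-fold, with a median of 0.12. In Gja5-detected cells all 18 capillary genes with at least 50 UMIs had a higher ratio in KO, 7 were past 2-fold (2.51% of the 2629 genes tested there were), and the median was 0.86 against −0.02 over all genes. Of those 2629 genes, 1265 had a higher ratio in KO. In the cells without Gja5 9 of 20 capillary genes were higher (3854 of all 7161 genes were), 0 past 2-fold, with a median of −0.05 against 0.03. General endothelial genes leaned the same way in the Gja5-detected cells, with 15 of 16 higher in KO, 0 past 2-fold and a median of 0.44 (0.03 in the cells without Gja5), and so did the guidance list, with 10 of 11 higher and a median of 0.40 (−0.09 without Gja5). Whether the capillary values differ from these was not tested. Aqp1 was at 356 CPM in WT and 924 in KO Gja5-detected cells (log2 1.37, 1.09 to 1.67), and at 2362 and 3053 in the others (0.37, 0.31 to 0.43). Gpihbp1 was at 418 and 838 CPM (1.003, 0.72 to 1.29) against 1364 and 1215 in the others. Cd300lg, a capillary mucin-like receptor, was at 158 and 476, Aqp7, a channel for glycerol, at 112 and 315, and Btnl9, a butyrophilin-like gene of capillary endothelium, at 55 and 236. Kdr was at 414 and 762 CPM (0.88, 0.59 to 1.17) against 1092 and 1150 in the others. In all of these genes the KO Gja5-detected cells lay between the WT Gja5-detected cells and the cells without Gja5, or above.

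The same held cell by cell. The summed capillary list without Fabp4, the most abundant member, had a median of 59.6 UMIs per 10000 (quartiles 44.4 to 79.6) over the 52 WT Gja5-detected cells and 107.7 (68.1 to 134) over the 43 KO cells, so the quartile ranges overlapped. In the cells without Gja5 the medians were 135.6 and 148. Aqp1 was at 0 in 32 of the 52 WT and 21 of the 43 KO cells. Without the cells that carried smooth muscle RNA, 18 of 18 genes were higher in KO with a median of 0.79 (45 and 38 cells). With at least 2 Gja5 UMIs, 14 of 15 were, with a median of 0.58 (23 and 17 cells), and with all 4 rule genes 14 of 16, with 0.64 (27 and 17 cells). Depth differed in the same cells, 8557 against 5268 UMIs per cell, FAP genes were lower in KO there (5 of 5 past 2-fold, median −2.62, where 4.49% of genes were past 2-fold lower), and the smooth muscle genes too (0 of 5 higher, −1.31). The part of each in the capillary values was not tested. Of 22 further arterial genes scored in the same cells 8 were higher in KO, with a median of −0.10, 2 past 2-fold higher (Lims2 and Ptprr) and 2 past 2-fold lower (Atp13a3 and Tspan8, the latter at −5.32). Clu was at 295 and 322 CPM there, Stmn2 at 429 and 412 and Fbln5 at 526 and 362 (log2 −0.54).

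**Figure D5:**
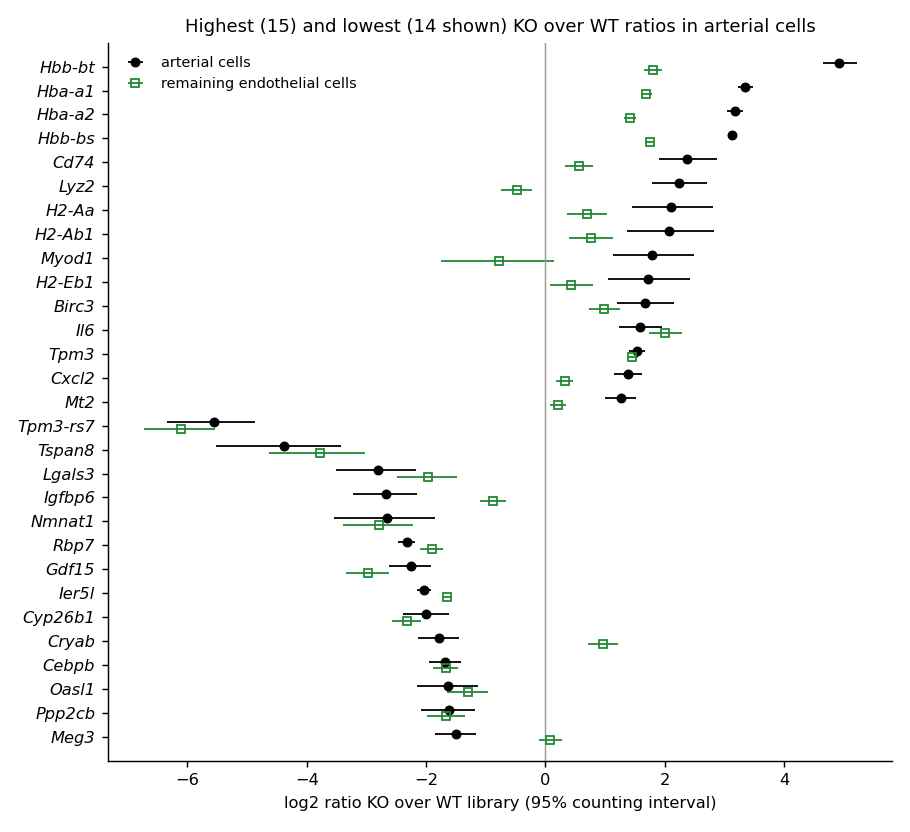
Log2 KO to WT ratio of the 15 highest and 14 of the 15 lowest genes with at least 100 UMIs in arterial-like cells (black) beside the same genes in the remaining endothelial cells (green). Of the genes shown, 13 of 15 higher and 12 of 14 lower ones have the same sign in both.

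Among single genes, those at the extremes were in large part not arterial genes. Of the 15 highest in KO, Hbb-bt, Hba-a1, Hba-a2 and Hbb-bs are the globins of red cells. Red-cell genes took 0.134% of UMIs in WT and 1.32% in KO, from 3 and 7 cells with over 1% of such UMIs, and Hbb-bs, at 838 CPM in WT and 7355 in KO, had 92.9% of its KO UMIs in 5 cells. Without the cells over 1% its log2 ratio was 0.41 in place of 3.13. Cd74, H2-Aa, H2-Ab1 and H2-Eb1 are genes of the class II antigen presentation pathway and Lyz2 is the macrophage lysozyme. Lyz2 was at 22.1 and 104 CPM (log2 2.23, 1.78 to 2.71) with 85.7% of its KO UMIs in 5 cells, and stood at 0.52 without the 5 cells with most of it in each library. The summed macrophage list was 69.5 CPM in WT and 215 in KO, against 230 and 144 in the remaining cells, with Ptprc at 0 by the gate. Myod1, the regulator of muscle cell fate, came from 3 and 5 cells.

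The remaining genes of the upper 15 were spread over more cells. Birc3, an inhibitor of cell death induced by NF-kappaB, was seen in 43 WT and 91 KO cells, at 22.6 and 71.8 CPM (log2 1.67, 1.20 to 2.16), with 0.99 in the remaining endothelium. Il6, the cytokine interleukin-6, was seen in 32 and 64 cells, at 38.8 and 117 CPM (log2 1.59), with 2.01 in the remaining cells. Cxcl2, a neutrophil-attracting chemokine, was at 92.6 and 241 CPM (1.38, 1.15 to 1.62), with 0.32 there, and Mt2, a metallothionein that binds zinc, at 79.9 and 191 (1.26, 1.004 to 1.52), with 0.22. These inflammatory and stress genes were thus higher in both endothelial populations, to unequal degrees.

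Tpm3 and Tpm3-rs7, a tropomyosin gene and its near-identical copy, had opposite differences. Tpm3 was at 269 CPM in WT and 779 in KO and Tpm3-rs7 at 360 and 7.67. Reads of the copies cannot be told apart with certainty, and their sum was 629 and 787 CPM (log2 0.32, 0.22 to 0.43), so each single value is uncertain.

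At the lower end, the list's 2 genes past 2-fold were Rbp7 and Tspan8. Rbp7 was the more abundant. This retinol-binding protein gene, at chromosome 4 149449687-149454978 on the − strand, stood at 1067 CPM in WT and 213 in KO arterial-like cells (log2 −2.33, −2.47 to −2.18) and was seen in 200 and 113 of the 258 cells. In the remaining endothelium it was at 211 and 56.5 CPM (−1.91), so it was higher in arterial-like cells within each library and lower in KO in both populations. In cells without Gja5 it was at 1050 and 161 CPM, and in Gja5-detected cells at 1135 and 576. Cyp26b1, which breaks down retinoic acid, was lower too, at 126 and 31.6 CPM (−1.995, −2.39 to −1.61) with −2.32 in the remaining cells.

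Tspan8, a tetraspanin listed among the arterial genes, had UMIs in 97 WT and 8 KO cells, at 84.4 and 4.06 CPM (log2 −4.38, −5.53 to −3.42), with −3.78 in the remaining cells. It lies at chromosome 10 115816832-115849893 on the + strand. Nmnat1, an NAD-making enzyme, was at 42.4 and 6.77 CPM (−2.65, −3.54 to −1.85), in 71 and 12 cells. Both genes were thus rare in the KO library's arterial-like cells, and both were also lower in KO among the remaining endothelial cells.

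Several regulators of stress were lower as well. Gdf15, a stress-induced hormone, was at 177 and 37.0 CPM (log2 −2.26, −2.62 to −1.91), Ier5l, an immediate early gene, at 1392 and 338 (−2.04, −2.16 to −1.93), and Cebpb, a transcription factor of inflammation, at 216 and 67.3 (−1.68, −1.96 to −1.41). In the remaining cells their ratios were −2.97, −1.66 and −1.68. Oasl1, an interferon-induced gene, was at −1.63 (−2.15 to −1.13), and Ppp2cb, a phosphatase subunit, at −1.62 (−2.09 to −1.17). Other genes of the lower 15 were Lgals3, Igfbp6, Meg3 and Cryab, whose WT UMIs were 84.5%, 90.4%, 62.2% and 75.9% in 5 cells.

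Set across 4 cell groups (arterial-like, remaining endothelial, FAP-gated and immune-gated), most of these genes were past 2-fold in more than 1 group. Hbb-bt, Il6 and Tpm3 were at least 2-fold higher and Tpm3-rs7, Nmnat1 and Cebpb at least 2-fold lower in KO in all 4. The 30 genes were picked by their ratio in the arterial-like cells, so passing 2-fold there was given in advance. In none of the other groups did the ratio pass 2-fold in the same direction for Cd74, Lyz2, H2-Aa, H2-Ab1, Myod1, H2-Eb1, Birc3, Cxcl2, Mt2, Igfbp6 and Cryab. Myod1 was past 2-fold in the opposite direction in immune-gated cells, at −1.51. Birc3 was just under 2-fold in the remaining cells at 0.99, with 0.83 in FAP-gated and 0.68 in immune-gated cells. The difference between groups was not tested, so these 11 genes are not shown to be particular to the arterial-like cells. Among them the class II genes came under 2-fold in several settings. Without cells carrying smooth muscle RNA Cd74 was at 0.70, H2-Aa at 0.78, H2-Ab1 at 0.73 and H2-Eb1 at 0.10, without cells holding a pericyte gene they were at 0.56, 0.58, 0.76 and 0.22, and as a mean over cells at 0.72, 0.82, 0.70 and 0.34. Cxcl2 was at 0.72 and Mt2 at 0.91 without cells holding a pericyte gene. Over all 7679 genes, 1062 had a KO to WT interval on the same side of 0 in arterial-like and remaining endothelial cells and 61 had intervals on opposite sides.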

How the data were processed

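Mouse gastrocnemius muscle 14 days after CTX was profiled by single-cell RNA-seq, with 1 library for WT and 1 for KO. Per the labels and methods, the authors aligned reads to mm10 with Cell Ranger (version 2.1.1 in the submitters' processing notes), removed cells by mitochondrial share and called doublets, and deposited a table on a natural log scale, the natural log of 1 plus UMIs per 10000 of the cell. No further doublet call was made. Of 29528482 values above 0 in 19169 genes, 33 lay more than 0.1 from a whole UMI after the scale was undone, and the recovered UMIs were used. Mitochondrial genes numbered 0.

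Cells were gated by detected genes, not clustered. UMIs were summed over cells of a library and divided by their total (CPM). Log2 ratios carry exact binomial intervals, levels Poisson intervals, shares Clopper-Pearson intervals and differences of shares Newcombe intervals (95%), with a sum of 0 set to 3 UMIs. Genes with at least 50 UMIs were compared, and 2-fold counted as a difference. Named were the rule and list genes, the 15 highest and lowest over the remaining endothelium by the less extreme library, and the 15 highest and lowest KO to WT ratios beyond 2-fold with at least 100 UMIs. One of the lowest genes is not reported here. The members and lists were chosen with earlier results of these data known. Splits by Gja5, by smooth muscle or red-cell UMIs, by the top 5 cells of a gene and the equal weighting were chosen after seeing the data. The recovery of UMIs and the ratios were tested on simulated data. Positions are from GENCODE on GRCm38, promoters from RefSeq on GRCm38.p6. Python 3.11.15, numpy 2.4.6, scipy 1.17.1 and pandas 2.3.3 were used.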

Additional observations from a re-analysis of the deposited data

Results flagged for a closer look

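Of the named genes, 2 had KO to WT ratios whose intervals lay on opposite sides of 0 in the 2 endothelial populations. Cryab, a small heat shock protein of muscle and stressed cells, had a log2 ratio of −1.78 in arterial-like cells and 0.96 in the remaining endothelial cells, and 75.9% of its WT and 71.3% of its KO arterial-like UMIs came from 5 cells. Lyz2, the macrophage lysozyme, was at 2.23 in arterial-like cells and −0.48 in the remaining cells, with 85.7% of its KO arterial-like UMIs from 5 cells. With 1 library per genotype the difference was not tested for either gene. Myod1 (1.78 and −0.78) and Meg3 (−1.50 and 0.08) also differed in sign, with an interval in the remaining cells that included 0.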

How the results depend on the processing

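Leaving out a replicate was not possible with 1 library per genotype. No paired analysis was possible because there is 1 library per genotype and no shared replicate numbers. Of 1168 recomputed values, 913 stayed within their interval or within 1.5 times the count, 245 moved and 10 changed sign. A sign change was counted only where the main ratio was at least 2-fold. Smaller values that changed sign are among the other 2 classes. Examples are the list medians of transcription factors (−0.20 to 0.09 in Gja5-detected cells) and capillary genes (0.12 to −0.05 in cells without Gja5). Genes higher over the remaining endothelium numbered 75 with at least 3 of 4 rule genes, 86 (34 lower) at 20 UMIs, 16 (8 lower) with 10 CPM added and 11 (1 lower) at 4-fold. Genes higher in KO numbered 173 as a mean over cells, 143 without the 5 cells with most UMIs of each gene, 258 (258 lower) at 20 UMIs, 29 (47 lower) with 10 CPM added, 19 (38 lower) at 200 UMIs and 494 (396 lower) at 1.5-fold. The median of the further arterial list was −0.076 as a mean over cells. The WT and KO shares of endothelium were 7.59% and 6.54% with at least 3 of 4 genes, 47.6% and 47.5% with Sox17 added to the rule genes and 4.33% and 5.18% after thinning. Among ratios of at least 2-fold, sign changes in KO to WT ratios were Myod1 at −0.16 without cells holding a pericyte gene and −0.71 in Gja5-detected cells, and there also Lyz2 at −0.76, H2-Aa at −0.30, H2-Eb1 at −0.47 and Mt2 at −0.45. Over the remaining cells they were Acta2 at −0.17 in WT and −2.27 in KO, Tesc at −0.081 in KO and S1pr3 at −0.15 in WT. All of these were without the arterial-like cells carrying smooth muscle RNA, a filter partly on Acta2 itself and not applied to the remaining cells. Other than the rules' own construction, the cause was not tested. The Gja5-detected comparison rests on 95 cells.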

Other observations

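Rbp7 and Nmnat1, both lower in KO in arterial-like and remaining endothelial cells, are neighbours on chromosome 4 on the same strand (149449687-149454978 and 149467572-149485202, GRCm38), with 12593 bases between them. Nmnat1 was at least 2-fold lower in all 4 cell groups compared. Summed Tpm3 and Tpm3-rs7 UMIs had log2 KO to WT ratios of 0.32 in arterial-like cells, 0.29 in the remaining endothelial cells, 0.68 in FAP-gated cells and 0.09 in immune-gated cells.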
